A study of Mus musculus with 30 samples.

Results

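The genes described here are 10 transcriptional regulators that set or mark the identity of brown and beige fat cells: Prdm16, Ebf2, Ebf1, Zfp516, Irf4, Zic1, Lhx8, Tbx1, Tbx15 and Cited1. They were taken by symbol from the 21652 genes of the count and FPKM tables, and all 10 had a row and at least 1 count in some library. RNA-seq had been made from 30 libraries of male C57BL/6J mice aged 7 to 8 weeks, a common inbred strain with no engineered allele named in the labels. Inguinal white fat (iWAT, the subcutaneous depot of the groin) and brown fat (BAT) came from mice kept at 22 °C or moved to 6 °C for 6 h or for 24 h, giving 6 groups of 5 libraries. The labels give a housing room of 24 ± 2 °C with 5 mice to a cage, and do not state whether a library is 1 animal, so p-values measure the spread between these libraries, which may be technical.

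Brown fat burns fuel through UCP1, and beige cells are inducible cells of the same kind within white depots. PRDM16 is a coregulator that works with PPARγ, C/EBP proteins and PGC-1α to raise brown genes and hold down muscle and white fat genes, EBF2 opens brown gene enhancers together with PPARγ, and ZFP516 and IRF4 act on thermogenic genes with PRDM16 and PGC-1α respectively. ZIC1 and LHX8 are used as markers of classical brown fat, TBX1 and CITED1 as markers of beige cells, and TBX15 as a marker of subcutaneous depots that is also made in skeletal muscle.

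Across the series 1 of the 10 genes had a large cold response: Irf4 rose in iWAT after 24 h, with a log2 fold change of 3.25 ± 0.55 (SE, n = 5 against 5). Prdm16 and Ebf2 did not pass the test in either depot at either time, while Ebf1 rose and Tbx15 fell in BAT after 6 h, calls that several alternatives lost. Between depots Zic1 was close to absent from iWAT and Tbx1 close to absent from BAT, and Prdm16 was higher in BAT at all 3 times. Levels are CPM, counts relative to the library total after scaling by TMM factors over all 30 libraries. Changes are log2 fold changes from edgeR's quasi-likelihood test, called at a Benjamini-Hochberg adjusted p under 0.05 over all genes tested. Each is given with an SE, taken as the absolute change divided by the square root of the test's F value. Total counts per library ran from 25.3 to 41.0 M.

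The promoter stretches of 3 members are shown first, because Irf4 carries the cold response and Zic1 and Tbx1 the widest depot differences in opposite directions. They are RefSeq windows on mouse build GRCm38.p6, cut before the first exon that GENCODE annotates in the window, while the authors' counts refer to GRCm39. Irf4 is on chr13:30748983-30749225 (plus strand), Zic1 on chr9:91365811-91366018 (minus strand) and the upstream start of Tbx1 on chr16:18590672-18590921 (minus strand), and capitals mark matches to the motifs named in the next paragraph.
Irf4: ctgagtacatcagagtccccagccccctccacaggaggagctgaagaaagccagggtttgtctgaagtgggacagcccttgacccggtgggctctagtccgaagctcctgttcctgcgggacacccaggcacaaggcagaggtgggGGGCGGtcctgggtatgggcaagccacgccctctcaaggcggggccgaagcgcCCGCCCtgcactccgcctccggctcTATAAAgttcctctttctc
Zic1: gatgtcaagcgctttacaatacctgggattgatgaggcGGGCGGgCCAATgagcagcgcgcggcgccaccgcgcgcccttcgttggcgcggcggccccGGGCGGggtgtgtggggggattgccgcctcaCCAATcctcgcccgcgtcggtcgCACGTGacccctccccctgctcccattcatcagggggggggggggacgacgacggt
Tbx1: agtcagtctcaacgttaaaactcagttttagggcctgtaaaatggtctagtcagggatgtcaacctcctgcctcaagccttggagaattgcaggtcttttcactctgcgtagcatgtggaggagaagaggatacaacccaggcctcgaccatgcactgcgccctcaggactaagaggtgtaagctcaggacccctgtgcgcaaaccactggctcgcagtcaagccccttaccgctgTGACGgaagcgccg

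Each motif was searched on both strands of the 250 bases before the start in 32536 distinct RefSeq windows. The Irf4 window held 1 TATA box (letters TATAAA) beginning 26 bases before the RefSeq start, a motif found in 12.3% of all windows. It also held 2 GC boxes (letters GGGCGG), and 33% of windows hold at least 1. The Zic1 window held 2 GC boxes as well. It held 2 CCAAT boxes, the letters of that name, and 33.8% of windows hold at least 1. Its 1 E-box (letters CACGTG) is found in 6.04% of windows. The Tbx1 window held 1 CRE core (letters TGACG) beginning 14 bases before the start, a motif of 17.9% of windows. None of the 3 windows held the FOXO motif (letters GTAAACA, in 3.17% of windows). None held the T-box core either (letters GTGTGA, in 12.1% of windows). These matches are letters in a window and do not show binding, and no motif overlapped another in the 3 windows. RefSeq windows were matched for 7 of the 10 genes, with 11 windows between them.

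Irf4, an interferon regulatory factor that fat cells make in response to fasting signals and that lymphocytes also use, stood at 19.5, 18.6, 16.3, 19.5 and 12.1 CPM in the 5 iWAT libraries at 22 °C (replicates 1 to 5). After 6 h in the cold it stood at 33.9, 16.6, 20.1, 23.1 and 45.6 CPM in iWAT. After 24 h it stood at 14.7, 372, 95.1, 176 and 170 CPM. Replicates 2 to 5 at 24 h were all above every iWAT library at 22 °C and 6 h, and replicate 1 at 24 h lay inside the 22 °C range. The 24 h change was 3.25 ± 0.55 (edgeR adjusted p = 0.00126), and the 6 h change was 0.68 ± 0.51 (adjusted p = 0.341). From 6 h to 24 h the difference was 2.57 ± 0.53 and did not pass in edgeR (adjusted p = 0.144), but it passed in DESeq2 (adjusted p = 0.00406), in the edgeR fit of all 30 libraries (adjusted p = 0.0231) and without the 24 h replicate 1 (2.87 ± 0.34, adjusted p = 0.00547). Since the tissue was sequenced in bulk, fewer cells of a type and less RNA per cell cannot be told apart for any gene here.

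In BAT, Irf4 stood at 79.3, 36.5, 26, 22.1 and 25.1 CPM at 22 °C. It stood at 28.9, 18.0, 21.0, 15.7 and 39.0 CPM after 6 h, and at 14.4, 78.2, 18.0, 28.8 and 37.2 CPM after 24 h. The 3 BAT groups overlapped, and neither cold time passed the test (-0.63 ± 0.44 at 6 h, adjusted p = 0.325, and -0.11 ± 0.43 at 24 h, adjusted p = 0.884, edgeR). The 24 h response itself differed between the depots, by -3.37 ± 0.73 in BAT relative to iWAT (edgeR interaction, adjusted p = 0.00592). The 6 h response difference was -1.32 ± 0.72 (adjusted p = 0.252). Irf4 was lower in BAT than in iWAT at 24 h by 2.23 ± 0.53 on the log2 scale (adjusted p = 0.000563), although the 2 groups overlapped through iWAT replicate 1. At 22 °C all 5 BAT libraries lay above all 5 iWAT libraries, with a difference of 1.14 ± 0.51 that missed the threshold in edgeR (adjusted p = 0.0526), passed in DESeq2 (adjusted p = 0.0409) and was 0.67 ± 0.51 without BAT replicate 1. It was 0.53 with library totals alone (edgeR adjusted p = 0.339) and 0.37 on log2(FPKM + 0.1) (limma adjusted p = 0.53). In FPKM the 2 groups overlapped, at 3.94 to 13.7 in BAT and 3.26 to 5.32 in iWAT.

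**Figure D1:**
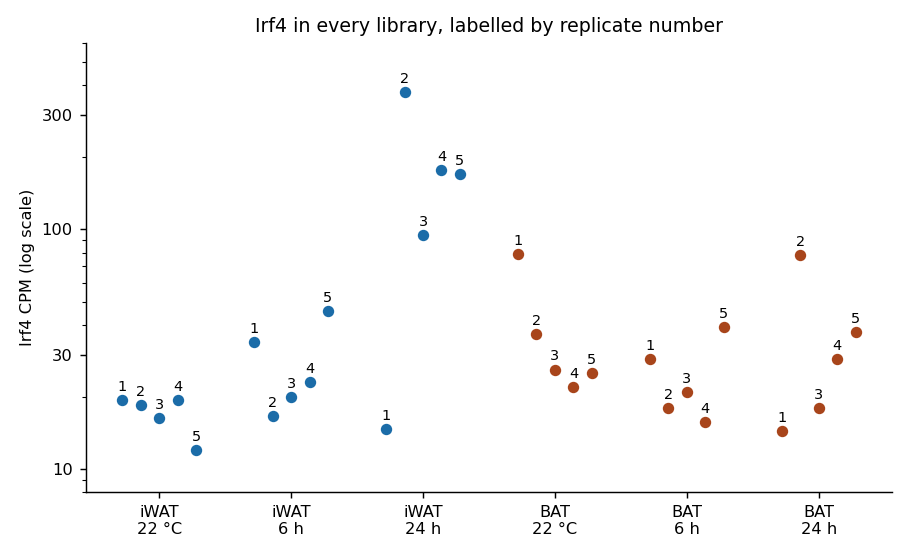
Irf4 level in every library, in TMM-scaled CPM on a log axis, with the replicate number beside each point and the 6 groups along the horizontal axis. At 24 h in iWAT replicates 2 to 5 lie between 95.1 and 372 CPM and replicate 1 is at 14.7 CPM, and in BAT replicate 1 is again the lowest and replicate 2 the highest, at 14.4 and 78.2 CPM.

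The replicate numbers of the labels were not stated to mark shared mice. Even so, at 24 h replicate 1 held the lowest Irf4 level and replicate 2 the highest in both depots, and at 6 h replicate 5 was the highest and replicate 1 next in both. At 22 °C the BAT library far above its group was replicate 1, whose iWAT counterpart by number was not set apart. B cells and plasma cells also make Irf4. The summed level of 12 other B cell markers was 2.02 to 3.67 CPM in iWAT at 24 h, against 2.62 to 13.5 CPM at 22 °C, with 0 to 2 of the 12 at 0, and that of 7 plasma cell markers was 119 to 197 CPM against 190 to 253 CPM. The ranges of the B cell sum overlapped, and those of the plasma cell sum met between 190 and 197 CPM. The sum of 11 macrophage and dendritic cell markers was 350 to 564 CPM in iWAT at 24 h, against 309 to 802 CPM at 22 °C. That of 9 T cell markers was 5.10 to 14.2 CPM against 7.94 to 15.2 CPM, and both pairs of ranges overlapped. The part of any of these cells in the Irf4 level was not tested. By Pearson correlation of log2 CPM over the 15 iWAT libraries, the genes most like Irf4 among 11947 included Irs2 (r = 0.89), encoding an insulin receptor substrate, and Rsrp1 (0.84), and these libraries share the cold groups.

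Of the members that are core drivers, Prdm16 stood at 15.5, 19.5, 22.4, 21.5 and 14.1 CPM in iWAT at 22 °C, at 10.7, 19.9, 20.6, 24.6 and 18.4 after 6 h, and at 21.8, 17.4, 18.8, 15.4 and 20.3 after 24 h. Its iWAT means were 18.6 ± 3.7, 18.9 ± 5.1 and 18.7 ± 2.5 CPM (SD, n = 5). In BAT it stood at 33.2, 42.1, 32.9, 30.01 and 44.4 CPM at 22 °C, at 31.3, 48.7, 46.3, 45.7 and 41.2 after 6 h, and at 32.8, 42.1, 37.3, 36.8 and 42.2 after 24 h. Every BAT library lay above every iWAT library in TMM-scaled CPM, and the cold groups overlapped their controls in both depots. In FPKM the depots overlapped at 22 °C (2.82 to 4.04 in BAT, 2.00 to 3.13 in iWAT). They also overlapped at 6 h (2.53 to 4.52 and 1.20 to 2.70), but not at 24 h (2.88 to 3.92 and 1.91 to 2.64). The iWAT changes were -0.00 ± 0.18 at 6 h and -0.01 ± 0.18 at 24 h, and the BAT changes 0.21 ± 0.13 and 0.05 ± 0.13, with edgeR adjusted p from 0.273 to 0.989. Prdm16 was higher in BAT than in iWAT by 0.97 ± 0.17, 1.18 ± 0.17 and 1.03 ± 0.17 at 22 °C, 6 h and 24 h (edgeR adjusted p = 8.57e-06, 5.31e-07 and 4.7e-06). With library totals alone the differences were 0.37, 0.79 and 0.59 and still passed, while on log2(FPKM + 0.1) the 22 °C difference was 0.36 (limma adjusted p = 0.0575).

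Ebf2, the early B cell factor that marks brown and beige precursors, ranged from 33.9 to 58.3 CPM in the 15 iWAT libraries and from 48.0 to 82.4 CPM in the 15 BAT libraries. Its means were 43.2 ± 5.2, 40.9 ± 4.9 and 46.2 ± 7.0 CPM in iWAT and 71.2 ± 5.1, 73.7 ± 8.9 and 63.6 ± 9.2 CPM in BAT, at 22 °C, 6 h and 24 h (SD, n = 5). No cold comparison of Ebf2 passed, although with library totals alone the 6 h change in iWAT was -0.34 (edgeR adjusted p = 0.0486) and without BAT replicate 1 at 6 h the difference from 6 h to 24 h in BAT was -0.30 (adjusted p = 0.0435). The depot difference was 0.72 ± 0.11 at 22 °C, 0.85 ± 0.11 at 6 h and 0.46 ± 0.11 at 24 h with TMM scaling (edgeR adjusted p = 2.47e-06, 2.03e-07 and 0.00083). With library totals alone it passed only at 6 h (0.46), and was 0.12 at 22 °C and 0.01 at 24 h.

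Ebf1, the family member used by B cells and by fat precursors alike, had the highest mean FPKM of the 10 in each BAT group. Its BAT levels were 112, 114, 106, 102 and 112 CPM at 22 °C, 137, 115, 149, 124 and 147 after 6 h, and 93.1, 115, 114, 109 and 115 after 24 h. The 6 h libraries lay above all of those at 22 °C and at 24 h, by a narrow margin for replicate 2. The rise at 6 h was 0.29 ± 0.08 (edgeR adjusted p = 0.0188) and the fall from 6 h to 24 h -0.30 ± 0.08 (adjusted p = 0.023). Both calls were lost on the FPKM values (limma adjusted p = 0.055 and 0.0603 with a pseudocount of 1), and the rise was also lost without BAT replicate 4 at 22 °C or replicate 3 or 5 at 6 h (adjusted p = 0.0527, 0.0746 and 0.0709). The fall was also lost with library totals alone (adjusted p = 0.0549), in the fits of only the 2 groups (0.0678) and of all 30 libraries (0.0613), and without BAT replicate 3 or 5 at 6 h (0.0726 and 0.0757) or replicate 1 at 24 h (0.0554). In iWAT Ebf1 stood between 90.1 and 146 CPM and passed at neither time. The difference between the depots' 6 h responses was 0.31 ± 0.15 and did not pass (adjusted p = 0.18). The BAT genes most like Ebf1 over 15 libraries were Cebpg (r = 0.87), Btbd3 (0.86) and Cdk17 (0.85), among 11585.

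Zfp516, a zinc finger protein that binds the Ucp1 promoter, ranged from 9.67 to 19.1 CPM in iWAT and from 9.04 to 19.3 CPM in BAT. It passed against 22 °C at neither cold time in either depot. In BAT all 5 libraries at 24 h (9.19 to 13.6 CPM) lay below all 5 at 6 h (14.0 to 19.3 CPM), a difference of -0.44 ± 0.16 that did not pass in edgeR (adjusted p = 0.0868) and passed in DESeq2 (adjusted p = 0.0478).

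**Figure D2:**
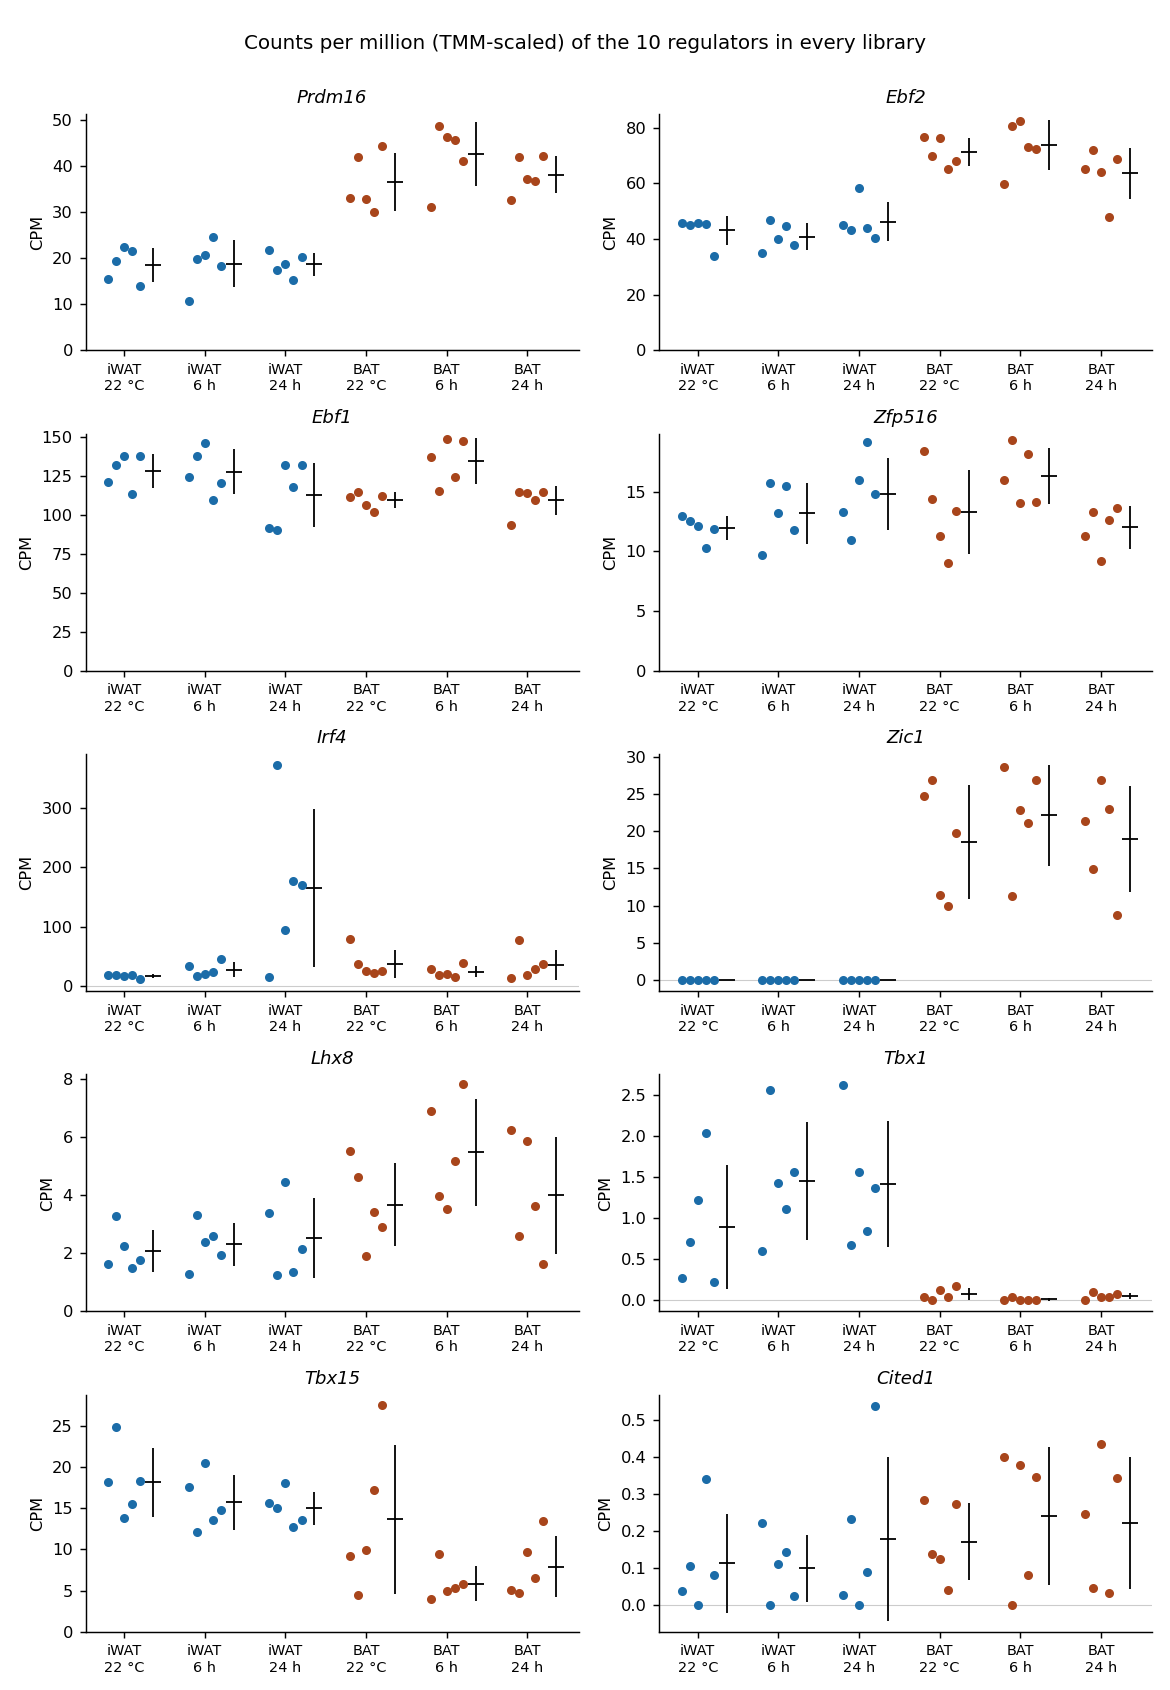
Level of each of the 10 regulators in every library, in TMM-scaled CPM on linear axes that differ between panels, with the mean ± SD (n = 5) drawn as a bar beside each group of points, iWAT in blue and BAT in brown. Zic1 is near 0 in all iWAT libraries and between 8.69 and 28.6 CPM in BAT, and Tbx1 is at most 0.17 CPM in BAT.

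Among the markers of classical brown fat, Zic1, a zinc finger factor of the neural and somite lineages, gave 2 counts in all 5 iWAT libraries at 22 °C, 1 count after 6 h and 0 after 24 h. In BAT it stood at 24.8, 26.8, 11.4, 10.01 and 19.7 CPM at 22 °C, at 28.6, 11.2, 22.8, 21.0 and 26.8 after 6 h, and at 21.3, 14.95, 26.8, 22.9 and 8.69 after 24 h. Every BAT library held at least 249 counts and no iWAT library more than 1. By scaled counts summed over each group, BAT was 2028 times iWAT at 22 °C (95% interval from counting error alone 561 to 16753) and 3768 times at 6 h (676 to 148860). At 24 h BAT was at least 1289-fold higher, taking 3 counts over the iWAT group as the limit that a count of 0 allows, and the lower end of the same 95% counting interval as at the other times was 1048. Within BAT the cold groups overlapped and neither time passed (0.24 ± 0.32 and 0.02 ± 0.32, edgeR). Over all 30 libraries the genes most like Zic1 were Mapt (r = 0.99), Hoxa5 (0.98) and Gnas (0.98) among 11932, and these libraries share the contrast between the depots.

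Lhx8, a LIM homeobox factor, was low in both depots, at 1.24 to 4.45 CPM in iWAT and 1.62 to 7.82 CPM in BAT. Its BAT levels after 6 h (6.88, 3.95, 3.52, 5.18 and 7.82 CPM) lay above all 5 iWAT levels at that time (1.30, 3.33, 2.37, 2.58 and 1.93 CPM), a difference of 1.25 ± 0.37 (edgeR adjusted p = 0.00457). The groups overlapped at 22 °C (0.81 ± 0.37, adjusted p = 0.0551) and at 24 h (0.67 ± 0.37, adjusted p = 0.115), and no cold comparison of Lhx8 passed. In FPKM the depots overlapped at 6 h too, at 1.20 to 2.61 in BAT and 0.54 to 1.43 in iWAT. With library totals alone the depot differences were 0.20, 0.84 and 0.21 at 22 °C, 6 h and 24 h, of which the 6 h value passed (adjusted p = 0.0482), and in DESeq2 the 22 °C difference passed as well (adjusted p = 0.0366).

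Of the beige markers, Tbx1, a T-box factor, stood at 0.263, 0.706, 1.22, 2.04 and 0.224 CPM in iWAT at 22 °C, at 0.602, 2.57, 1.44, 1.11 and 1.56 after 6 h, and at 2.62, 0.676, 1.57, 0.839 and 1.37 after 24 h. The iWAT groups overlapped, and the changes of 0.71 ± 0.55 and 0.67 ± 0.55 did not pass (edgeR adjusted p = 0.352 and 0.396). The 5 BAT libraries together gave 11 counts at 22 °C, 1 at 6 h and 6 at 24 h, against 184, 253 and 278 in iWAT. By scaled counts iWAT was 9.85 times BAT at 22 °C (95% counting interval 5.38 to 20.1), 212 times at 6 h (37.7 to 8403) and 31.3 times at 24 h (14.2 to 86.1). The depot difference passed at each time (edgeR adjusted p = 7.14e-05, 1.03e-07 and 1.6e-06), with no overlap. The depots' 6 h responses differed by -3.69 ± 1.30, which did not pass in edgeR (adjusted p = 0.0686) and passed in DESeq2 (adjusted p = 0.03). Across the alternatives that kept every library this value ran from -3.77 to -0.17. Tbx1 was too low to be tested within BAT, and the BAT side rests on 11 counts against 1. The value therefore does not show a cold response in BAT. The genes most like Tbx1 over all 30 libraries were Tm9sf3 (r = 0.94), Fancl (0.94) and Slc27a1 (0.94), the last a fatty acid transporter. These libraries share the contrast between the depots, with Tbx1 close to absent from BAT. Cited1, a coactivator without a DNA-binding domain, gave 0 to 20 counts per library in iWAT and 0 to 12 in BAT. It was too low to be tested within either depot, and no depot comparison passed. By scaled counts BAT was 1.78 times iWAT at 22 °C (95% counting interval 0.95 to 3.34), 2.61 times at 6 h (1.41 to 5.05) and 1.31 times at 24 h (0.78 to 2.19). These intervals leave out the spread between libraries, and a difference was not settled at such low counts.

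Tbx15, the T-box factor of subcutaneous fat and of glycolytic muscle, stood at 18.2, 24.9, 13.9, 15.5 and 18.3 CPM in iWAT at 22 °C, at 17.6, 12.1, 20.5, 13.6 and 14.9 after 6 h, and at 15.6, 15.04, 18.0, 12.8 and 13.5 after 24 h. In BAT it stood at 9.18, 4.43, 9.90, 17.2 and 27.6 CPM at 22 °C, at 3.96, 9.42, 4.90, 5.26 and 5.77 after 6 h, and at 5.05, 4.75, 9.74, 6.58 and 13.5 after 24 h. In BAT the highest 2 values were both at 22 °C, and all 3 groups overlapped. In BAT Tbx15 fell at 6 h by 1.23 ± 0.40 on the log2 scale (edgeR adjusted p = 0.0368), and the 24 h change was -0.80 ± 0.40 (adjusted p = 0.162). In iWAT the changes were -0.23 ± 0.17 and -0.29 ± 0.17 and did not pass. Tbx15 was lower in BAT than in iWAT at 6 h by 1.42 ± 0.33 and at 24 h by 0.92 ± 0.32 on the log2 scale (edgeR adjusted p = 0.000446 and 0.0153), and at 22 °C the difference was -0.41 ± 0.32 (adjusted p = 0.261), or -1.02 ± 0.34 with library totals alone (adjusted p = 0.00732).

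Skeletal muscle transcripts moved with Tbx15. The summed level of 11 muscle markers was 1972, 254, 1951, 5225 and 8545 CPM in BAT at 22 °C, 8.65, 1533, 364, 26 and 393 after 6 h, and 4.78, 2.24, 1275, 764 and 4322 after 24 h, always in the order of replicates 1 to 5. In iWAT it was 3367 CPM in replicate 2 at 22 °C, the iWAT library with the highest Tbx15, and at most 8.02 CPM in the other 14. Over the 15 BAT libraries the log2 levels of Tbx15 and of the muscle sum correlated with r = 0.81 and rho = 0.91, and the gene most like Tbx15 was Synpo2 (r = 0.98), followed by Tmem38a and Slc25a12. The 4 BAT libraries with a muscle sum under 100 CPM, a cut that was not planned, held 3.96 to 5.26 CPM of Tbx15. The 14 iWAT libraries under that sum held 12.1 to 20.5 CPM. All 4 of these BAT libraries were from the cold, while every BAT library at 22 °C had a sum of at least 254 CPM. Cold and a low muscle sum thus cannot be told apart among them, and the source of the Tbx15 transcripts was not tested. With the muscle sum as a covariate the 6 h change in BAT was -0.52 ± 0.31 (edgeR adjusted p = 0.272) and the depot difference at 22 °C was -1.37 ± 0.31 (adjusted p = 0.00039). The 6 h call was also lost on FPKM values (limma adjusted p = 0.0802 with a pseudocount of 1) and without any 1 of 6 libraries: BAT replicates 4 and 5 at 22 °C (adjusted p = 0.0809 and 0.135) and replicates 1, 3, 4 and 5 at 6 h (0.0748, 0.0789, 0.0744 and 0.0689).

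**Figure D3:**
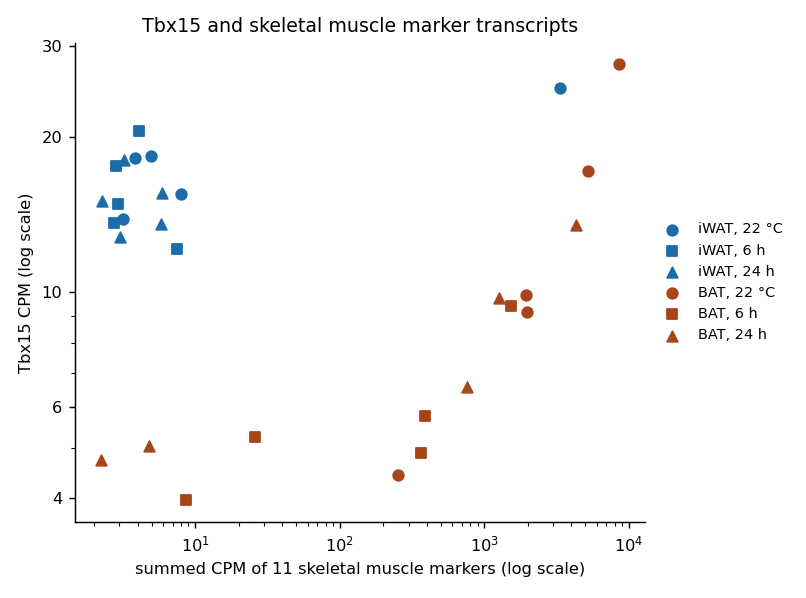
Tbx15 level against the summed level of 11 skeletal muscle markers, both in TMM-scaled CPM on log axes, with 1 point per library, colour for depot and shape for condition. The 4 BAT libraries at the left, all from the cold, hold 3.96 to 5.26 CPM of Tbx15, and the BAT library with the highest muscle sum, 8545 CPM, holds 27.6 CPM.

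In counts of members, none of 8 tested was called in iWAT at 6 h by edgeR, none had an unadjusted p under 0.05 and DESeq2 called none, against 23% of 13689 genes called. At 24 h 1 of 8 was called, against 23% of genes, and between 24 h and 6 h none of 8, against 0.00731% of genes, where 1 member had an unadjusted p under 0.05 and DESeq2 called 1. In BAT 2 of 8 were called at 6 h against 22.7% of 13090 genes, 1 of 8 between 24 h and 6 h against 13%, and none at 24 h against 23.1%, where no member had an unadjusted p under 0.05 and DESeq2 called none. These counts are not particular to the members beside the shares of all genes. Zic1 and Cited1 in iWAT, and Tbx1 and Cited1 in BAT, were too low to be tested, and the 6 h and 24 h comparisons of a depot share its 22 °C libraries. Median log2 fold changes of the tested members were 0.05 and 0.17 in iWAT and 0.22 and -0.06 in BAT at 6 h and 24 h, beside medians of -0.03, -0.04, -0.01 and -0.01 over all genes tested.

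**Figure D4:**
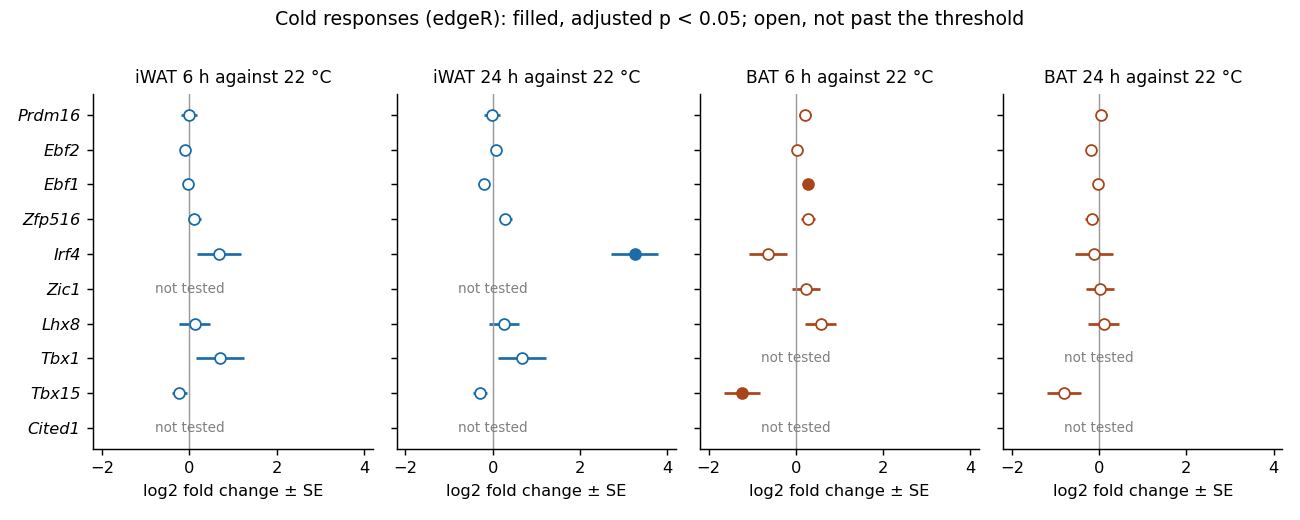
Log2 fold change ± SE of each regulator at 6 h and 24 h against 22 °C in each depot, by edgeR with 5 libraries a group, filled where the adjusted p is under 0.05. The filled points are Irf4 in iWAT at 24 h (3.25) and Ebf1 (0.29) and Tbx15 (-1.23) in BAT at 6 h, and genes too low to test are marked.

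Between depots 5, 6 and 6 of the 10 members were called at 22 °C, 6 h and 24 h, against 66.9%, 66.2% and 63.6% of 14089 genes, so a call between depots is not particular to the members. The response differed between depots for none of 10 at 6 h (edgeR, 3 at an unadjusted p under 0.05, 1 called by DESeq2) against 9.4% of genes, and for 1 of 10 at 24 h, Irf4, against 7.81%. Scaling matters for these comparisons. Without TMM factors the median of all genes moved by -0.60 at 22 °C, -0.40 at 6 h and -0.44 at 24 h in BAT relative to iWAT, and by -0.23 and -0.16 at 6 h and 24 h in iWAT. Ebf1 was -0.23 ± 0.10 in BAT relative to iWAT at 22 °C (edgeR adjusted p = 0.0471, but 0.0527 in DESeq2 and 0.0524 to 0.102 without 1 of 8 of the 10 libraries) and 0.07 ± 0.10 at 6 h with TMM, and -0.84 and -0.33 with library totals alone. Zfp516 at 22 °C was 0.15 ± 0.16 with TMM and -0.46 ± 0.17 with library totals alone (adjusted p = 0.0157).

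**Figure D5:**
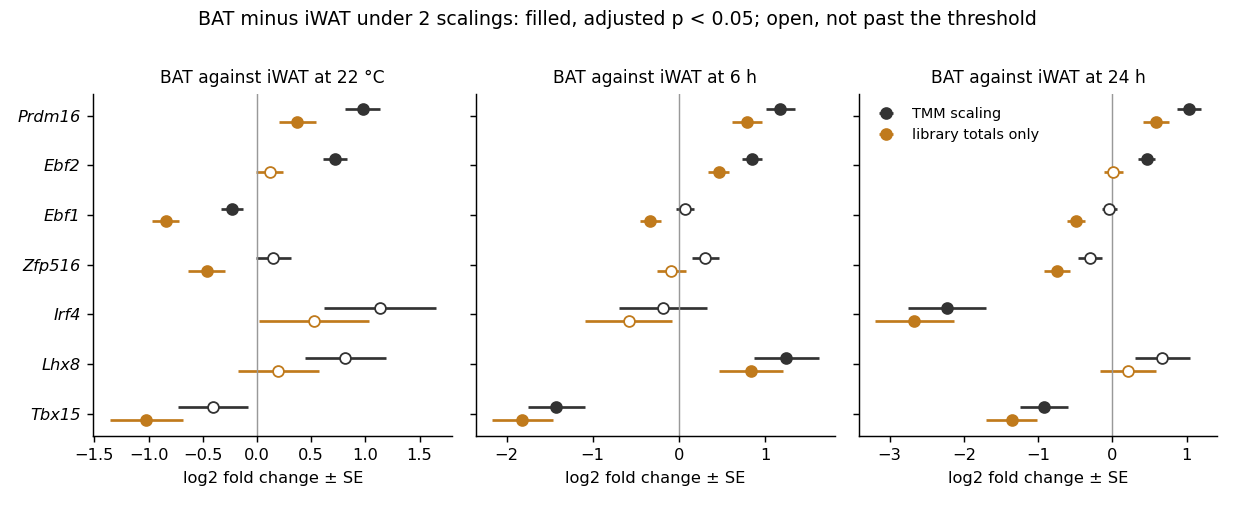
Log2 fold change ± SE of BAT relative to iWAT for 7 regulators with counts in every library, at the 3 times, by edgeR with TMM factors (dark) and with library totals only (orange), filled where the adjusted p is under 0.05. Prdm16 lies above 0 and Tbx15 below 0 under both scalings, while Zfp516 at 22 °C is at 0.15 and -0.46.

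Per unit of transcript length, in the deposited FPKM, Ebf1 led in iWAT at 22 °C (17.2 ± 2.1, SD, n = 5), followed by Ebf2 (8.13 ± 1.03), Tbx15 (6.38 ± 1.76), Irf4 (4.57 ± 0.84), Prdm16 (2.60 ± 0.47), Zfp516 (1.89 ± 0.25) and Lhx8 (1.09 ± 0.42). Tbx1 (0.32), Cited1 (0.081) and Zic1 (0.0022) stood far below. The ranges of Ebf2 and Tbx15 overlapped, as did those of Tbx15 and Irf4, of Prdm16 and Zfp516, and of Zfp516 and Lhx8. After 24 h Irf4 led the iWAT order at 38.8 ± 30.5 FPKM, with a range of 3.38 to 85.9. In BAT at 22 °C the order was Ebf1 (9.61 ± 0.37), Ebf2 (8.83 ± 0.58), Irf4 (6.60 ± 4.07), Prdm16 (3.37 ± 0.56), Tbx15 (3.13 ± 2.05), Zic1 (2.79 ± 1.13), Zfp516 (1.38 ± 0.35) and Lhx8 (1.25 ± 0.47), with Cited1 (0.084) and Tbx1 (0.018) last. Each gene from Ebf1 to Lhx8 in this BAT order overlapped the next in range.

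The partners and targets of these regulators were read from lists. Of 20 PRDM16 partners and coregulators tested in iWAT, 3 rose and 2 fell at 6 h and 3 rose and 2 fell at 24 h, so 5 of 20 were called each time, near the 23% of all genes. The coactivators Ppargc1a (2.52 ± 0.42 and 2.74 ± 0.43) and Ppargc1b (1.63 ± 0.26 and 2.20 ± 0.26) rose at both times, and the deacetylase Hdac5 fell (-0.36 ± 0.11 and -0.40 ± 0.11). In BAT 2 of 19 rose and 5 fell at 6 h, beside 22.7% of all genes called. Ppargc1a (2.39 ± 0.27) was among those up and Hdac5 (-0.41 ± 0.08) among those down. Of 32 other regulators that favour the brown programme, 9 rose and 1 fell in iWAT at 6 h and 9 rose and 3 fell at 24 h, including the estrogen-related receptors Esrrb (3.20 ± 0.67), Esrrg (1.86 ± 0.44) and the nuclear receptor Nr4a3 (2.71 ± 0.56) at 24 h. The share of all genes called was 23% at each time. In BAT 7 of these regulators rose and 5 fell at 6 h, beside 22.7% of all genes called. At 24 h 5 rose and 7 fell, beside 23.1%. Esrrb rose in BAT at 24 h too (2.08 ± 0.22), whereas Nr4a3 rose at 6 h (1.81 ± 0.14) and fell at 24 h (-0.56 ± 0.14), the last value lying outside the rule for named genes and chosen after it was seen. Of 31 regulators that restrain the programme or mark white fat, 2 rose and 6 fell in iWAT at 24 h, with Zfp521, an EBF inhibitor, at -0.68 ± 0.21. These 8 of 31 are again near the 23% of all genes called.

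In iWAT 14 of 24 brown-selective genes rose and 2 fell at 6 h, and 17 rose and 2 fell at 24 h. The medians over the 24 were 1.14 and 1.53. Whether the rise depended on Prdm16 or Ebf2, which did not pass the test there, was not tested. Beside these counts, 23% of all genes were called in iWAT at each time. Ucp1 rose by 3.03 ± 0.90 and 3.46 ± 0.91, and Fabp3, a fatty acid carrier, by 5.09 ± 1.11 at 24 h. Beige-selective genes split, with 2 of 14 up and 2 down at 24 h, beside the same 23%. Fgf21 was among those up (4.48 ± 0.98). In BAT 11 of 25 brown-selective genes rose and 3 fell at 6 h, with Bmp8b at 2.93 ± 0.39, beside 22.7% of all genes called. At 22 °C, 23 of 25 brown-selective genes were higher in BAT and 1 lower, and none of 19 white-selective genes was higher and 18 were lower. Between depots 66.9% of all genes were called at 22 °C. The lists are named for this contrast and were chosen with earlier results of these data known, so these counts are no independent test. Cell type markers moved with the iWAT responses. The sum of 8 adipocyte markers was 21348 to 27379 CPM in iWAT at 22 °C, 27558 to 34525 at 6 h and 25158 to 30205 at 24 h, so the 6 h libraries lay above all at 22 °C. That of 14 progenitor and fibroblast markers was 3103 to 4986 CPM at 22 °C, 2041 to 3280 at 6 h and 1726 to 2781 at 24 h, with no overlap between 24 h and 22 °C. That of 11 mural cell markers was 572 to 735, 482 to 612 and 391 to 539.5 CPM in the same order. No gene of these 3 lists was at 0 in any iWAT library, and their part in the rise of the brown-selective genes was not tested.

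Within the members' own families, Zic4, the neighbour of Zic1, was higher in BAT at 22 °C by 6.34 ± 0.81. Ebf3 was higher by 0.51 ± 0.11 and Tbx5 by 2.13 ± 0.29. In the cold Tbx3 rose in iWAT at 24 h (0.64 ± 0.13) and in BAT at 6 h (0.47 ± 0.14). Irf2 fell in the same 2 comparisons (-0.56 ± 0.14 and -0.60 ± 0.14), opposite in sign to Irf4 in iWAT. Of 8 IRF family genes tested in iWAT at 24 h, Irf4 was the 1 that rose and Irf2 the 1 that fell. This count is near the 23% of all genes called there.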

How the data were processed

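RNA-seq of polyA RNA from 30 libraries (5 in each of 6 groups) was analysed. The deposited raw counts per gene and the deposited FPKM values were used, and the submitters' processing notes name HISAT2, HTSeq and GRCm39, with versions not given in the sources used here. In the deposited tables FPKM is the count divided by the library total, with no TMM factor, and by a length that is the same in every library. Genes passed filterByExpr (minimum count 10) and counts were scaled by TMM and tested with edgeR 4.0.16 (quasi-likelihood, Benjamini-Hochberg adjusted p under 0.05) in R 4.3.3, cold comparisons over the 15 libraries of a depot and depot and interaction comparisons over all 30. Changes are relative to the trimmed mean over genes that TMM uses. With it the median of all genes lay at -0.04, -0.02 and -0.02 in BAT relative to iWAT at 22 °C, 6 h and 24 h. TMM factors differed between depots (1.02 to 1.38 in iWAT, 0.75 to 0.88 in BAT). The scripts were checked on simulated counts. DESeq2 1.42.0, limma 3.58.1 on log2(FPKM + 1 or 0.1), other filters and scalings, a replicate block and leaving out each library were alternatives, and library totals alone and a muscle covariate were added after seeing the data. Named list genes are up to 4 called genes of largest change per list and comparison, and like genes the 3 of highest r with a mean of at least 1 CPM, of which 1 is not reported here. The members and lists were chosen with earlier results of these data known. Hdac5 and Ucp1 in iWAT at 6 h lay outside that rule and were named after their values were seen. Replicate numbers were not treated as pairs, because not every same-numbered pair across depots correlated over 0.1. The replicate block gave each number the same effect in all groups of a fit, so it did not pair the depots within a time. Depot and interaction tests thus took the libraries as independent. Sequences are RefSeq's on GRCm38.p6.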

Additional observations from a re-analysis of the deposited data

Results flagged for a closer look

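In 6 of 59 groups tested, 1 library stood apart from the other 4 by Dixon's ratio (over 0.71 for 5 samples), and chance sets apart about 1 in 20 groups. Ebf2 stood low in iWAT at 22 °C replicate 5 (33.9 CPM) and high in iWAT at 24 h replicate 3 (58.3 CPM). Ebf1 stood low in BAT at 24 h replicate 1 (93.1 CPM). Irf4 stood high in BAT at 22 °C replicate 1 (79.3 CPM). Zic1 in iWAT at 6 h replicate 3 (0.0276 CPM) and Tbx1 in BAT at 6 h replicate 2 (0.0344 CPM) were single counts in groups otherwise at 0. The Irf4 response to 24 h of cold differed between depots by -3.37 on the log2 scale (BAT relative to iWAT, edgeR interaction).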

How the results depend on the processing

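Over 2295 values of a member under an alternative, 2213 kept the side of the threshold, 42 fell below it, 34 rose above it and 6 reversed, and 110 uncalled values had the opposite sign; the cause was not tested. The Irf4 rise in iWAT at 24 h passed in every alternative run (2.33 to 3.28, and 2.72 to 3.55 without 1 library), as did its difference between depots (-3.45 to -2.48, and -3.90 to -2.83). The 6 reversals were between depots: Zfp516 at 22 °C to -0.29 and -0.46 on log2(FPKM + 1) and log2(FPKM + 0.1) and -0.46 without scaling factors, and Ebf1 at 6 h to -0.30, -0.32 and -0.33 in the same order.

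The count of members called moved from 0 to 1 in iWAT at 6 h without scaling factors. In iWAT at 24 h against 6 h it moved from 0 to 1 in DESeq2 and with all 30 libraries, and lay between 0 and 1 without 1 library. In BAT at 6 h it moved from 2 to 0 on both FPKM scales and to 1 with the muscle covariate and with the replicate block, which lost Tbx15 (-1.05, adjusted p = 0.0552), and lay between 0 and 2 without 1 library. In BAT at 24 h against 6 h it moved from 1 to 2 in DESeq2, and to 0 on both FPKM scales, with only the groups compared, with all 30 libraries and without scaling factors, and lay between 0 and 2 without 1 library. For the depots' difference at 6 h it moved from 0 to 1 in DESeq2 and on log2(FPKM + 1), and lay between 0 and 1 without 1 library. With the replicate block Irf4 in iWAT at 24 h was 3.02. Of same-numbered pairs across depots 5 of 15 correlated over 0.1 (r from -0.53 to 0.34), and 7 of 15 libraries correlated best with their own number: 0 of 5 at 22 °C, 2 of 5 at 6 h and 5 of 5 at 24 h, where r was 0.082 to 0.34. The 24 h libraries thus give a hint of pairing by number that the labels do not state. Cited1, Zic1 in iWAT and Tbx1 in BAT were limited by low counts.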
